A study of Mus musculus with 8 samples.

Results

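The vacuolar ATPase (V-ATPase) is the proton pump that acidifies lysosomes, endosomes and secretory vesicles. It is built from a cytosolic V1 part, which hydrolyses ATP, and a membrane V0 part, through which protons pass, and peripheral stalks hold the V1 part in place while a central rotor turns. The pump also lies beside the nutrient-sensing machinery of the lysosome, and pancreatic ductal adenocarcinoma (PDAC) is known for a high dependence on lysosomes and autophagy. The transcripts described here are 10 of the 53465 genes in the deposited table: *Atp6v1a*, *Atp6v1b2*, *Atp6v1c1*, *Atp6v1d*, *Atp6v1e1*, *Atp6v1f*, *Atp6v1g1* and *Atp6v1h* of V1, and *Atp6v0c* and *Atp6v0d1* of V0. They were picked by gene name. The set was chosen from measured values of these same libraries, so the levels and fold changes of the 10 genes are a description and carry no test. All 10 passed the filter on low counts.

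RNA was sequenced from 2 PDAC lines, B73 and B87, each grown from the pancreatic tumour of a mouse with an inducible *Smad4* hairpin. In these mice *Ptf1a*-Cre, which acts in the pancreas, switches on a *Rosa26* allele with the transactivator rtTA3 and the red reporter mKate2. Doxycycline (Dox) then drives a GFP-linked short hairpin RNA against *Smad4* from the *Col1a1* locus. All 4 groups share these alleles. Continuous Dox gave Smad4-off cells, and 5 days of Dox withdrawal gave Smad4-on cells. Both states received, for 24 h, either 100 pM recombinant mouse TGFβ1 or SB505124 at 2.5 µM, which blocks the kinase of the type I TGFβ receptor. Each group held 2 libraries, 1 from each line, and the lines served as the replicates. No cells without either agent were included, so each TGFβ1 value is set against receptor inhibition. No line with a neutral hairpin was sequenced here either, so Dox itself and *Smad4* cannot be told apart. Which of the study's *Smad4* hairpins a line carries is not given in the labels.

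Library totals ran from 18389235 to 23440550 counts, and 3 counts, the smallest level taken as detectable, correspond to 0.125 to 0.162 CPM (counts scaled to a common library total). These floors cover counting error only. *Smad4* itself followed the labels. In B73 its level was 33.7 and 34.7 CPM in the Smad4-off libraries and 97.4 and 117 CPM in the Smad4-on libraries, and in B87 it was 34.9 and 35.5 against 113.8 and 115.5 CPM. A list of 14 markers of other cell types (leukocytes, osteoclasts, endothelium, fibroblasts, acinar cells) summed to 6.28 to 11.2 CPM. In a library 5 to 8 of its genes were at 0, and *Adgre1*, *Lum*, *Ptf1a* and *Cpa1* were at 0 in all 8. *Cd68*, of the leukocyte and macrophage markers, was at 1.17 to 6.29 CPM. It was highest in the Smad4-off SB505124 library of B73, where the list summed to 8.74 CPM. The ductal markers *Krt18* and *Krt19* were at 591.7 to 2428 and 152.6 to 1575 CPM, while *Epcam* lay at 0.153 to 2.11 CPM. *Cdh1* ran from 11.5 CPM, in Smad4-on TGFβ1 cells of B87, to 468.6 CPM, in Smad4-on SB505124 cells of B73. *Cldn4* had no count in any SB505124 library and lay at 0.199 to 46.2 CPM under TGFβ1, so these marker levels differed between the groups. The summed level of the 8 ductal markers was 3410 to 5604 CPM in B73 and 1229 to 2135 CPM in B87.

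The sequence of *Atp6v1g1*, the gene on which the comparisons below turn, is shown first because a near copy of it exists. *Atp6v1g1* (GRCm38 chr4:63544772-63550750, plus strand) encodes the G1 subunit of the peripheral stalk. *Gm13453*, a processed pseudogene on chromosome 2, carries all 357 bases of its coding region and differs from it at 2 of them, G92A and C182A, counted from the first base of the start codon with the base of *Atp6v1g1* first. Both lie in exon 2 of *Atp6v1g1* (chr4:63548585-63548685, plus strand, coding positions 83 to 183), which is printed here 5′ to 3′ with the corresponding stretch of the pseudogene (chr2:40127678-40127778, minus strand). The capitals mark the bases that differ.
Atp6v1g1 exon 2: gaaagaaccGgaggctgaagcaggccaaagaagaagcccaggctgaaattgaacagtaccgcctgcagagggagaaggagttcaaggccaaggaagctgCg
Gm13453: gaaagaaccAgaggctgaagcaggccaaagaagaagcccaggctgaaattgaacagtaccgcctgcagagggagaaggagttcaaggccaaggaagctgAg
A 75-base read that lies wholly within the coding region and spans neither position reads the same in both genes. Such shared stretches make up 12.5% of the 1061 possible 75-base stretches of *Atp6v1g1* (133 of them). The counts given to *Gm13453* were 23 to 63 per library, against 1045 to 3721 for *Atp6v1g1*.

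*Atp6v1g1* was the subunit that stood apart. In B73 it was measured at 55.2 CPM in Smad4-off cells under SB505124, 56.5 in Smad4-on cells under SB505124, 71.0 in Smad4-off cells under TGFβ1 and 189.9 in Smad4-on cells under TGFβ1. In B87 the same 4 conditions gave 53.2, 57.4, 74.4 and 175.5 CPM. Both libraries that combined *Smad4* with TGFβ1 lay above the other 6, which stayed between 53.2 and 74.4 CPM. In Smad4-on cells TGFβ1 libraries were 3.21-fold above SB505124 libraries (log2 1.68 ± 0.0821, ± SE from the fit across all genes), 1.75 in B73 and 1.61 in B87. Within TGFβ1, Smad4-on cells were 2.51-fold above Smad4-off cells (log2 1.33 ± 0.0811), 1.42 in B73 and 1.24 in B87. Under SB505124 the same contrast of *Smad4* states was 1.05-fold (log2 0.07 ± 0.0816). Smad4-off cells had a smaller difference between TGFβ1 and SB505124, 1.34-fold (log2 0.42 ± 0.0813), of 0.36 in B73 and 0.48 in B87. The difference between the *Smad4* effects under the 2 treatments was 1.26 ± 0.115 on the log2 scale, 1.39 in B73 and 1.13 in B87. In bulk RNA a higher level per cell and a larger share of cells with the transcript cannot be told apart. The pseudogene's counts in the Smad4-on libraries went from 25 under SB505124 to 35 under TGFβ1 in B73 and from 46 to 63 in B87.

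**Figure D1:**
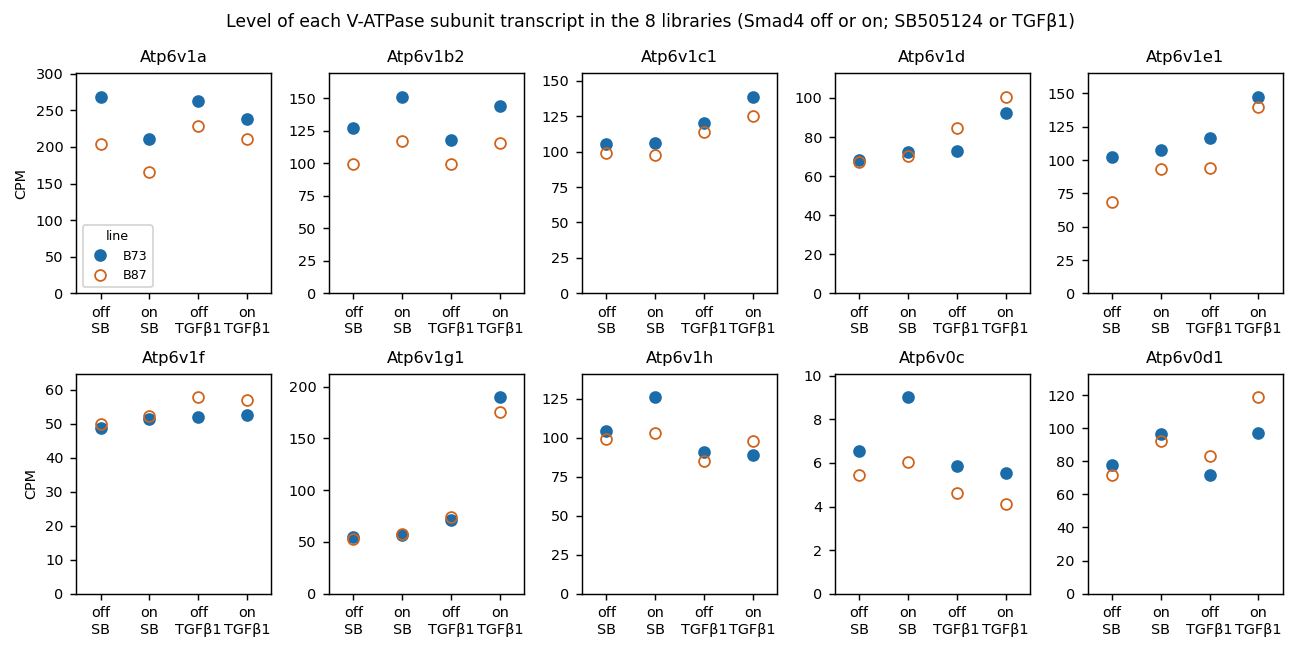
CPM (vertical axes, from 0) of each of the 10 V-ATPase transcripts in the 8 libraries, by *Smad4* state (off, on) and treatment (SB, TGFβ1) on the horizontal axes, filled circles for B73 and open circles for B87. *Atp6v1g1* reached 189.9 and 175.5 CPM in the Smad4-on TGFβ1 libraries and no more than 74.4 CPM elsewhere.

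Across all 14301 tested genes the comparison of *Smad4* states under TGFβ1 called 3.52% higher and 3.28% lower at an adjusted p under 0.05. Of the 10 subunits 1, *Atp6v1g1*, was called higher and 0 lower. Their median log2 fold change was 0.21, against −0.0073 over all tested genes, and 8 of 10 had the same sign in both lines. Under SB505124, 0.972% of tested genes were called higher and 0.622% lower in Smad4-on cells, and 0 of the 10 subunits were called by edgeR or by DESeq2 (3 had an unadjusted p under 0.05 in edgeR), with a median of 0.12. TGFβ1 moved far more genes in Smad4-on cells, where 15.6% of tested genes were called higher and 17.6% lower. There 4 subunits were called higher (*Atp6v1c1*, *Atp6v1d*, *Atp6v1e1* and *Atp6v1g1*) and 1 lower (*Atp6v0c*), and the median was 0.23 (0.357 in B87 alone and 0.105 in B73 alone). The call of *Atp6v0c* was lost in DESeq2 with the line, which called *Atp6v1a* higher in its place. In that comparison the lines agreed in sign for all 10, of which 7 were positive and 3 negative. In Smad4-off cells 6.96% of tested genes were called higher and 6.24% lower under TGFβ1, and *Atp6v1g1* was the 1 subunit called (median 0.11, or 0.207 in B87 alone and 0.0312 in B73 alone). For the difference between the *Smad4* effects under the 2 treatments, 0.0559% of tested genes were called higher and 0.14% lower, and again *Atp6v1g1* was the 1 subunit called (median 0.16). The rule used the values behind all these contrasts, so nothing is read from the counts. The contrasts also share libraries with each other.

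Without *Atp6v1g1*, the other 9 subunits covered a narrow range. Their log2 fold changes ran from −0.13 to 0.48 for *Smad4* under TGFβ1 and from −0.33 to 0.34 under SB505124. For TGFβ1 they ran from −0.62 to 0.53 in Smad4-on cells and from −0.21 to 0.32 in Smad4-off cells. The call of *Atp6v1g1* in the first of these contrasts was kept when each library was left out in turn, and in DESeq2. Such refits reuse the libraries from which the set was chosen, so a call that is kept has no independent support from them. The call for the difference of the *Smad4* effects was lost without any 1 of 7 libraries, the Smad4-on TGFβ1 library of B87 being the exception, and without the line in the edgeR model. That model called 0 of the 14301 tested genes for this difference. In Smad4-off cells the call of *Atp6v1g1* was lost without any 1 of the 4 libraries compared. For TGFβ1 in Smad4-on cells, *Atp6v1g1* alone of the 10 was called without the Smad4-on SB505124 library of B87, and without any of the other 3 libraries compared the calls were 3, *Atp6v1g1* among them.

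**Figure D2:**
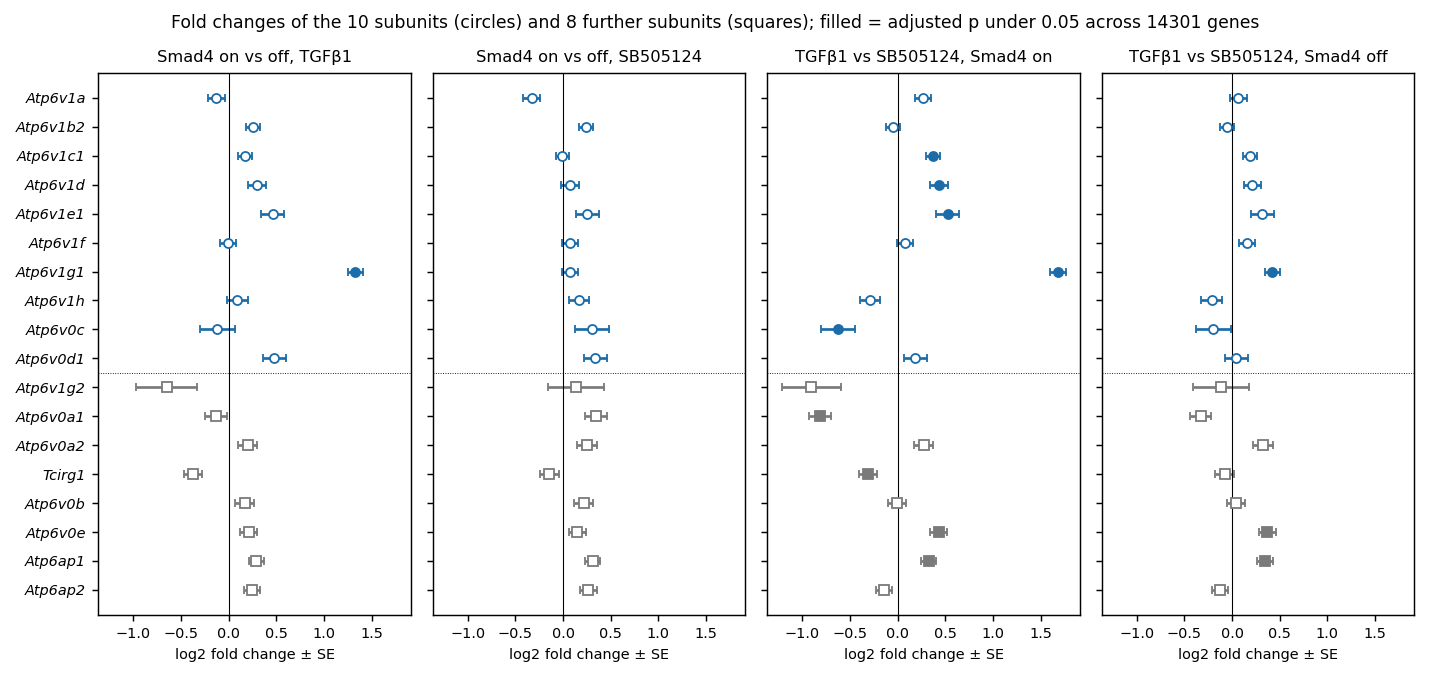
Log2 fold change ± SE (horizontal axes) in 4 comparisons for the 10 subunits (blue circles) and 8 of the other tested subunits and accessory proteins (grey squares), filled where the adjusted p over 14301 tested genes was under 0.05. *Atp6v1g1* lies at 1.33 and 1.68 in the panels for *Smad4* under TGFβ1 and for TGFβ1 in Smad4-on cells, while the other 9 blue circles stay between −0.62 and 0.53.

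The remaining stalk subunits moved less. *Atp6v1e1* encodes E1, the partner with which G pairs in each peripheral stalk. Under SB505124 it was at 102.0 CPM without *Smad4* and 107.6 with it in B73, and under TGFβ1 at 116.5 and 147.5 CPM. In B87 these 4 conditions had 68.2, 93.0, 93.8 and 139.9 CPM. The Smad4-on TGFβ1 library was the highest in each line, and the log2 fold change of TGFβ1 in Smad4-on cells was 0.53 ± 0.121. Because its difference was smaller than that of G1, the ratio of *Atp6v1g1* to *Atp6v1e1* (both as CPM per kb of transcript) changed. The ratio was 1.96, 1.90 and 2.21 in the first 3 conditions of B73 and 4.66 in the fourth, and 2.83, 2.23 and 2.87 against 4.54 in B87.

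*Atp6v1c1*, which encodes the C subunit that bridges the stalks to V0, was at 105.6, 106.0, 119.9 and 138.6 CPM in B73 and 98.8, 97.4, 113.5 and 125.0 CPM in B87, in the order used above. All 4 TGFβ1 libraries lay above all 4 SB505124 libraries, and the log2 fold change of TGFβ1 was 0.37 ± 0.0719 in Smad4-on cells and 0.19 ± 0.0718 in Smad4-off cells. *Atp6v1d*, the D subunit of the central rotor, was at 68.5, 72.2, 73.02 and 92.5 CPM in B73 and 67.0, 70.5, 84.5 and 100.6 CPM in B87. Its TGFβ1 libraries were likewise all above its SB505124 libraries, by a log2 fold change of 0.44 ± 0.092 in Smad4-on cells and 0.21 ± 0.0921 in Smad4-off cells. *Atp6v1f*, the F subunit of the rotor, was the flattest of the 10, at 48.6 to 57.8 CPM over the 8 libraries, and its fold changes lay between −0.01 and 0.16.

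*Atp6v1h* encodes the regulatory H subunit, which links ATP hydrolysis to the membrane part. It was at 104.4, 126.2, 90.8 and 88.9 CPM in B73 and 99.4, 103.0, 85.0 and 97.9 CPM in B87. All 4 TGFβ1 libraries lay below all 4 SB505124 libraries, the opposite of *Atp6v1c1*, and the log2 fold change was −0.29 ± 0.108 in Smad4-on cells. It was −0.51 in B73 and −0.07 in B87, so the size differed between lines. Its exons overlap *Rgs20* by 127 bases on the opposite strand, whose counts were 87 to 191 under SB505124 and 180 to 843 under TGFβ1. The strand setting of the authors' counting is not given in the sources used here, and the part of this overlap in the *Atp6v1h* values was not tested.

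The A and B subunits form the catalytic ring of V1, A holding the active sites. *Atp6v1a* was at 268.5, 210.7, 263.0 and 238.6 CPM in B73 and 204.5, 165.2, 229.1 and 211.3 CPM in B87. *Atp6v1b2*, the B subunit found in most tissues, was at 127.4, 151.1, 118.2 and 143.9 CPM in B73 and 99.1, 117.2, 99.1 and 115.8 CPM in B87. The 2 ring transcripts took opposite directions with *Smad4*. Smad4-on cells were lower for *Atp6v1a* in both lines under both treatments (log2 −0.33 ± 0.0873 under SB505124 and −0.13 ± 0.0872 under TGFβ1), and higher for *Atp6v1b2* (0.24 ± 0.0744 and 0.25 ± 0.0745). Neither gene was called in any of these contrasts by edgeR with the line in the model.

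The 2 transcripts of the membrane part differed in level. *Atp6v0d1*, whose product d1 couples the rotor to the membrane ring, was at 77.8, 96.7, 71.6 and 97.1 CPM in B73 and 71.7, 92.3, 83.2 and 118.8 CPM in B87. All 4 Smad4-on libraries lay above all 4 Smad4-off libraries, with log2 fold changes of 0.48 ± 0.118 under TGFβ1 and 0.34 ± 0.119 under SB505124. *Atp6v0c* encodes c, the proton-carrying proteolipid of that ring. It was at 6.54, 9.02, 5.87 and 5.56 CPM in B73 and 5.45, 6.03, 4.63 and 4.13 CPM in B87. In Smad4-on cells the TGFβ1 libraries were below the SB505124 libraries in both lines, by a log2 fold change of −0.62 ± 0.181. Its call was lost in DESeq2, without the line in the edgeR model, in a fit of only the 4 libraries compared and in 6 of the 8 fits that left out a library. Of its 75-base stretches 9.24% also occur in other genes, chiefly the processed pseudogene *Atp6v0c-ps2*, and how the authors counted reads that align to several genes is not given in the sources used here, so this level is uncertain.

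Between genes, levels are compared per kb of transcript, using the deposited lengths. *Atp6v1g1* had the highest mean of the 10 over the 8 libraries, 80.7 CPM per kb (46.9 to 167.3), a mean that rests on the Smad4-on TGFβ1 libraries at 167.3 and 154.6. In the Smad4-on SB505124 libraries *Atp6v0d1* was higher, at 53.9 against 49.8 CPM per kb in B73 and 51.5 against 50.5 in B87. *Atp6v1g1* was followed in the order of means by *Atp6v1f* at 49.5 (45.7 to 54.4) and *Atp6v0d1* at 49.4 (39.9 to 66.3). *Atp6v1a* followed at 37.0, *Atp6v1e1* at 26.4, *Atp6v1b2* at 22.9, *Atp6v1c1* at 20.2 and *Atp6v1d* at 17.1. The ranges of neighbours in this order overlapped down to *Atp6v1d*, so that order is not separated by the spread over libraries. *Atp6v1h* (10.2, 8.73 to 12.9) lay below the lowest library of *Atp6v1d*, and *Atp6v0c* (1.75, 1.22 to 2.67) lay below *Atp6v1h*. The lengths are unions of exons, from 1063 bases for *Atp6v1f* to 9746 for *Atp6v1h*, and a long annotated exon that the cells do not use lowers a gene's value per kb.

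**Figure D3:**
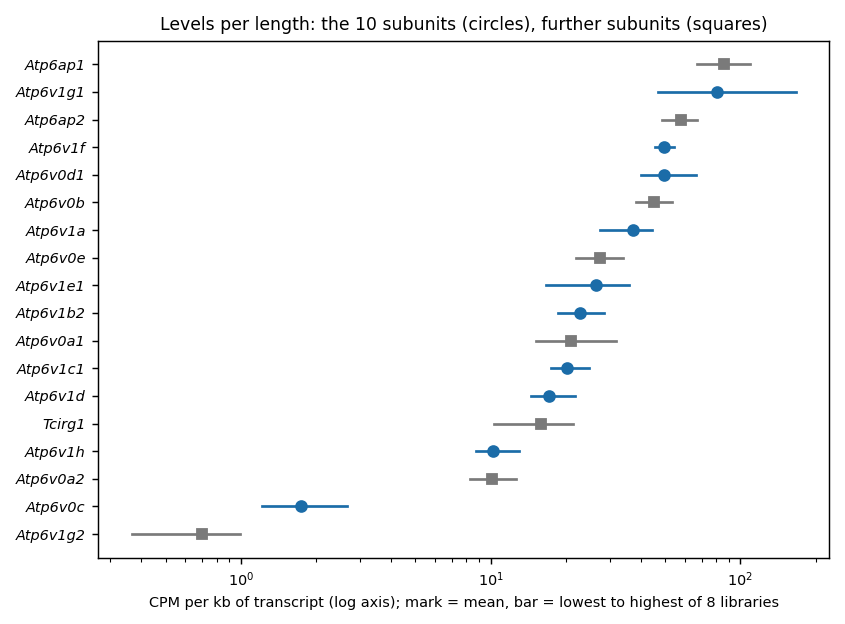
CPM per kb of transcript (horizontal, log axis) for the 10 subunits (blue circles) and 8 further subunits and accessory proteins (grey squares), with the mean of the 8 libraries as the mark and the lowest to highest library as the bar. *Atp6v1g1* has the widest bar of the 10, from 46.9 to 167.3, and *Atp6v0c* the lowest mean, 1.75.

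Summed over the 10 subunits, the level was 964.4 CPM in Smad4-off SB505124 cells of B73, then 987.6 with *Smad4*, 982 with TGFβ1 and 1195 with both. In B87 the sums were 817.3, 854.2, 925.1 and 1146 CPM. The condition with both was the highest in each line. *Atp6v1g1* made up 5.72% to 8.04% of the sum in the other 6 libraries, and 15.9% and 15.3% in the Smad4-on TGFβ1 libraries of B73 and B87. The other 9 subunits without it summed to 909.3, 931, 911 and 1005 CPM in B73 and to 764, 796.8, 850.6 and 970.3 CPM in B87.

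**Figure D4:**
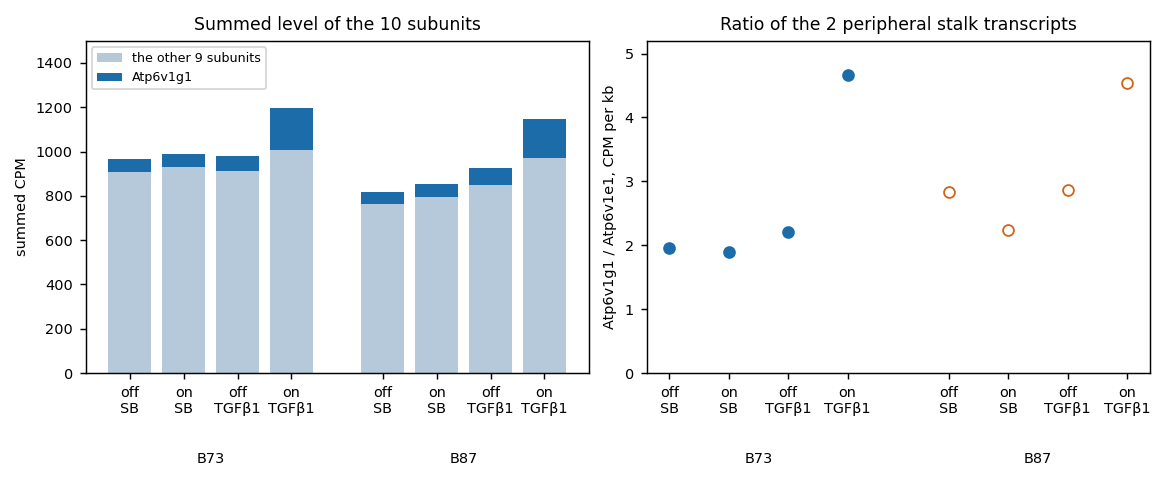
Left, summed CPM of the 10 subunits in each library (vertical axis from 0), with *Atp6v1g1* in dark blue on top of the other 9. Right, the ratio of *Atp6v1g1* to *Atp6v1e1* in CPM per kb, 4.66 and 4.54 in the Smad4-on TGFβ1 libraries and 1.90 to 2.87 elsewhere.

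The 2 lines differed in the level of some subunits whatever the treatment. Among tested genes, 8.92% were called higher in B87 and 9.68% lower. Of the subunits 0 were called higher and 2 lower, *Atp6v1a* (log2 −0.28 ± 0.0617) and *Atp6v1b2* (−0.32 ± 0.0526), the catalytic ring pair. For *Atp6v1b2*, every B87 library (99.1 to 117.2 CPM) lay below every B73 library (118.2 to 151.1 CPM). The call of *Atp6v1b2* was kept without each library in turn, and that of *Atp6v1a* only without a Smad4-on TGFβ1 library, where *Atp6v1e1* was called too. *Atp6v1g1* had nearly the same level in the lines, −0.02 ± 0.0571.

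V-ATPase genes that are not among the 10 were tested in the same fit, with edgeR's quasi-likelihood test and Benjamini-Hochberg adjustment over all tested genes. Of 17 other subunits and accessory proteins 9 had enough counts. The tissue-restricted isoforms *Atp6v1b1*, *Atp6v1c2*, *Atp6v1e2*, *Atp6v1g3*, *Atp6v0a4*, *Atp6v0d2* and *Atp6v0e2*, and *Atp6ap1l*, did not pass the filter, and *Atp6v1g3* and *Atp6ap1l* had no count in any library. *Smad4* gave 0 calls among the 9 under TGFβ1 in edgeR (4 had an unadjusted p under 0.05) and 2 in DESeq2 with the line, *Atp6ap1* and *Tcirg1*. Under SB505124 it gave 0 in edgeR (4 unadjusted) and 1 in DESeq2 with the line, *Atp6ap1*.

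TGFβ1 in Smad4-on cells called 2 of these 9 genes higher and 2 lower, in a contrast that called 15.6% of all tested genes higher and 17.6% lower, so the count itself is near the background. The a subunits steer the pump to different membranes and hold the proton half-channels. *Atp6v0a1* (a1) was at 174.9 and 159.9 CPM under SB505124 and 108.4 and 99.4 CPM under TGFβ1 in Smad4-on cells of B73 and B87, and fell by 0.81 ± 0.115 on the log2 scale (adjusted p = 0.0024). *Tcirg1* (a3, known from osteoclasts and lysosomes) fell by 0.31 ± 0.0969 (adjusted p = 0.0468), from 78.7 and 63.1 to 70.1 and 46.1 CPM, a call close to the threshold that was lost in DESeq2, without the line, without the filter on low counts, in the 4 libraries compared and in 7 of the 8 fits that left out a library. *Atp6v0a2* (a2, known from the Golgi) went from 71.0 and 62.4 to 76.2 and 85.1 CPM, a log2 fold change of 0.27 ± 0.102 that did not pass (adjusted p = 0.0801). Of the 4 calls, that of *Atp6v0a1* was kept without each library in turn, though not without the line in the edgeR model. It was the 1 call left without either B87 library of the Smad4-on groups, and 2 were left (with *Atp6v0e*) without the Smad4-on TGFβ1 library of B73. Of the summed level of these 3 a transcripts per kb, a1 held 53.1% and 51.0% under SB505124 and 38.0% and 39.8% under TGFβ1.

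*Atp6v0e*, a small membrane subunit, rose by 0.43 ± 0.0888 in Smad4-on cells (adjusted p = 0.0106) and by 0.37 ± 0.0889 in Smad4-off cells (adjusted p = 0.038). *Atp6ap1*, an accessory protein needed for V0 assembly, rose by 0.33 ± 0.0799 (adjusted p = 0.0205) and 0.35 ± 0.0801 (adjusted p = 0.0336). Both were higher under TGFβ1 in both lines and both *Smad4* states. The calls of both genes in Smad4-off cells were lost without any 1 of the 4 libraries compared. In Smad4-on cells the call of *Atp6ap1* was likewise lost without any 1 of the 4 libraries compared there, and without the line in the edgeR model. *Atp6v0e* and *Atp6ap1* were the 2 calls of Smad4-off cells, where 6.96% of all tested genes were called higher and 6.24% lower. In those cells *Atp6v0a1* had a log2 fold change of −0.33 ± 0.114 (adjusted p = 0.108). *Atp6v1g2*, the paralogue of *Atp6v1g1* known from neurons, was at 0.918 to 2.49 CPM, and its log2 fold change with TGFβ1 in Smad4-on cells was −0.91 ± 0.311 (adjusted p = 0.063). *Atp6v0b* and *Atp6ap2* were not called in any contrast, and *Rnasek*, at 0.255 to 0.649 CPM, shares 59.5% of its 75-base stretches with *Gm21988* and cannot be told apart from it. Between lines *Tcirg1* (−0.51 ± 0.0684, adjusted p = 0.00305) and *Atp6v0a1* (−0.34 ± 0.0806, adjusted p = 0.0293) were lower in B87, the call of *Atp6v0a1* being kept only without a Smad4-on TGFβ1 library.

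Of 12 assembly factors and regulators 11 were tested, and TGFβ1 in Smad4-on cells raised 1 and lowered 3, beside 15.6% and 17.6% of all tested genes. *Oxr1*, a TLDc-domain protein of the family that drives V1 off V0, was the assembly gene called under the most contrasts. It was at 256.6, 205.4, 153 and 101.3 CPM in B73 and 246.4, 181.9, 130 and 91.5 CPM in B87, so both *Smad4* and TGFβ1 went with lower levels. It fell by 1.01 ± 0.0797 with TGFβ1 in Smad4-on cells (adjusted p = 0.000268), by 0.83 ± 0.079 in Smad4-off cells (adjusted p = 0.00163) and by 0.55 ± 0.0794 with *Smad4* under TGFβ1 (adjusted p = 0.0115). *Tmem199*, which helps to assemble V0 in the endoplasmic reticulum, rose by 0.67 ± 0.106 in Smad4-on cells (adjusted p = 0.00365) and 0.47 ± 0.105 in Smad4-off cells (adjusted p = 0.0312). *Rogdi*, of the RAVE-like complex that joins V1 to V0, fell by 0.66 ± 0.195 with TGFβ1 in Smad4-on cells (adjusted p = 0.0396).

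The MiT/TFE transcription factors are known to bind the CACGTG core in promoters of lysosomal and V-ATPase genes. *Tfeb* was at 15.0 and 14.1 CPM under SB505124 and 7.07 and 5.46 CPM under TGFβ1 in B73 (Smad4 off, then on), and at 12.3 and 9.78 against 4.23 and 4.64 CPM in B87. All 4 TGFβ1 libraries lay below all 4 SB505124 libraries, and *Tfeb* fell by 1.22 ± 0.183 in Smad4-on cells (adjusted p = 0.00307) and 1.30 ± 0.181 in Smad4-off cells (adjusted p = 0.00597). *Tfe3*, at 54.3 to 74.0 CPM, had a log2 fold change of 0.28 ± 0.0923 with TGFβ1 in Smad4-on cells (adjusted p = 0.0575), and *Mitf*, at 0.847 to 2.04 CPM, one of −0.19 ± 0.418 (adjusted p = 0.769). *Tfec* was called lower in the Smad4-on contrast (adjusted p = 0.00304), on 100 and 14 counts under SB505124 against 1 and 0 under TGFβ1, and B87 had no count in 3 of its 4 libraries.

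Promoter sequence was available for 6 of the 10 subunits and 13 of the 17 others, as windows of 250 bases before to 50 after the start (RefSeq, GRCm38.p6). *Atp6v1b2*, *Atp6v1c1*, *Atp6v1g1*, *Atp6v1h*, *Atp6v0a2*, *Atp6v0d2*, *Atp6ap1l* and *Rnasek* had no entry. CACGTG, which reads the same on both strands, occurred in 7.15% of 32851 windows, and in those of *Atp6v1a*, *Atp6v0d1*, *Atp6v0b* and *Atp6v0e*. The longer GTCACGTG, which contains it, was searched on both strands and occurred in 2.25% of windows, among them *Atp6v0d1* and *Atp6v0b*. Stretches with the core before the RefSeq start are printed 5′ to 3′ on the gene's strand, with CACGTG in capitals. The *Atp6v0d1* core begins 3 bases before the RefSeq start, the *Atp6v1a* core 131 bases before it, and the *Atp6v0b* cores 36 and 18 bases before it. The deposited positions put the start of *Atp6v1a* further upstream, at chr16:44139705, so by them its printed stretch lies inside the gene.
Atp6v0d1 (chr8:105566062-105566107, minus strand): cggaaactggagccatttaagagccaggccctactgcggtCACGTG
Atp6v1a (chr16:44139345-44139430, minus strand): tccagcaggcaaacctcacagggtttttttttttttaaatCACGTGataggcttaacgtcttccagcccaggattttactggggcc
Atp6v0b (chr4:117887330-117887405, minus strand): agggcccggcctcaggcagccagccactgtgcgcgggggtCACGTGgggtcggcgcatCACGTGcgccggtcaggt
The 4 genes with the core did not move alike with TGFβ1 in Smad4-on cells, where their log2 fold changes were 0.19 ± 0.118 for *Atp6v0d1*, 0.27 ± 0.0874 for *Atp6v1a*, −0.004 ± 0.0954 for *Atp6v0b* and 0.43 ± 0.0888 for *Atp6v0e*. Of other motifs searched on both strands, the AP-1 letters TGANTCA (7.81% of windows) occurred in *Atp6v0a1*, and the palindromic SMAD letters GTCTAGAC (0.213% of windows) in none of the 19. These are matches of letters within the windows and say nothing of binding.

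The hydrolases and membrane proteins that work in the compartment the pump acidifies were counted from a list of 43 lysosomal genes, all tested. With TGFβ1 in Smad4-on cells 3 rose and 13 fell, and the median log2 fold change was −0.21, against −0.02 over all tested genes, of which 15.6% were called higher and 17.6% lower. *Lipa*, the lysosomal acid lipase, was at 149.7 and 143.2 CPM under SB505124 and 29.9 and 51.3 CPM under TGFβ1, and fell by 1.87 ± 0.245 (adjusted p = 0.00177). *Neu1*, a sialidase, fell by 1.25 ± 0.167 (adjusted p = 0.00194) and *Sgsh*, a heparan sulfatase, by 1.14 ± 0.163 (adjusted p = 0.00254). *Ctsl*, the protease cathepsin L, went the other way. In Smad4-on cells it went from 520.2 and 691.4 CPM under SB505124 to 1138 and 1218 CPM under TGFβ1 (B73, then B87). It rose by 0.59 ± 0.109 with TGFβ1 in Smad4-off cells (adjusted p = 0.0163) and by 0.50 ± 0.109 with *Smad4* under TGFβ1 (adjusted p = 0.044), B73 going from 826.1 to 1138 CPM and B87 from 842.8 to 1218. In Smad4-off cells 1 lysosomal gene rose and 3 fell (6.96% and 6.24% of all tested genes), among them *Lipa* (−1.14 ± 0.24, adjusted p = 0.0257) and *Neu1* (−0.64 ± 0.163, adjusted p = 0.0451). *Lipa* and *Neu1* thus fell in both *Smad4* states.

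Of 14 autophagy genes TGFβ1 raised 2 and lowered 1 in Smad4-on cells, no larger a share than the 15.6% and 17.6% of all tested genes together. *Wipi1* (0.74 ± 0.147, adjusted p = 0.00945) and *Wipi2* (0.63 ± 0.0737, adjusted p = 0.00115), which act early in autophagosome formation, rose, and *Gabarapl1*, an ATG8 family member, fell by 0.61 ± 0.157 (adjusted p = 0.0241). In Smad4-off cells the 2 calls were *Ulk1*, the kinase that starts autophagy (0.57 ± 0.121, adjusted p = 0.0261), and *Wipi2* (0.42 ± 0.0734, adjusted p = 0.013), beside 6.96% of all tested genes called higher and 6.24% lower. Of 16 genes for the mTORC1 machinery at the lysosome, 2 rose and 3 fell in Smad4-on cells, again near those shares. *Rraga*, a Rag GTPase, rose with TGFβ1 in Smad4-on cells (0.47 ± 0.0853, adjusted p = 0.00657) and with *Smad4* under TGFβ1 (0.38 ± 0.0851, adjusted p = 0.0458). *Lamtor3*, a subunit of the Ragulator scaffold, fell by 0.49 ± 0.11 (adjusted p = 0.0152), and *Flcn*, the GTPase activator that acts on RagC and RagD, fell by 0.40 ± 0.0761 (adjusted p = 0.00748) and, in Smad4-off cells, by 0.38 ± 0.0761 (adjusted p = 0.022).

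Acid can also leave the cell through other carriers, and of 10 such genes 2 rose and 1 fell with TGFβ1 in each *Smad4* state, beside 15.6% and 17.6% of all tested genes in Smad4-on cells and 6.96% and 6.24% in Smad4-off cells. *Slc16a3*, the lactate and proton exporter MCT4, had the largest rise of this list in both states. It went from 1.95 and 3.70 CPM to 19.0 and 52.6 CPM in Smad4-on cells (log2 3.62 ± 0.337, adjusted p = 0.00047) and rose by 2.36 ± 0.332 in Smad4-off cells (adjusted p = 0.00615). *Slc16a1*, the related MCT1, fell by 0.80 ± 0.126 (adjusted p = 0.00358) and 0.75 ± 0.125 (adjusted p = 0.0116). *Bsg*, the chaperone of both carriers, rose by 0.37 ± 0.101 in Smad4-on cells (adjusted p = 0.0293), and the bicarbonate carrier *Slc4a4* rose by 1.16 ± 0.24 in Smad4-off cells (adjusted p = 0.0238).

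The subunits did not follow a single pattern over the 8 libraries. Pearson's r between the log2 CPM of a subunit and the mean of the other 9 was 0.931 for *Atp6v1e1*, 0.82 for *Atp6v1c1*, 0.736 for *Atp6v1d*, 0.656 for *Atp6v0d1*, 0.616 for *Atp6v1g1* and 0.573 for *Atp6v1b2*. It was 0.308 for *Atp6v1f*, 0.125 for *Atp6v1a*, −0.156 for *Atp6v1h* and −0.279 for *Atp6v0c*. These points are 8 libraries that share 2 lines and 4 conditions, so the values describe these libraries only. Of 9408 tested genes with a mean log2 CPM of at least 3, the 5 whose log2 CPM tracked the mean of the 10 subunits most closely over the 8 libraries were *Dcun1d3* (r = 0.99), *Tcf25* (0.981), *Unc45a* (0.98), *Syvn1* (0.98) and *Commd9* (0.978), and 211 of these genes had an r over 0.9.

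The genes on either side of *Atp6v1g1* were also examined, a choice made after values were seen. Within 500 kb of its start, 6 other genes were tested. With TGFβ1 in Smad4-on cells 2 of them rose. *Col27a1*, a fibrillar collagen gene whose start lies 331 kb before that of *Atp6v1g1*, went from 10.1 and 2.16 CPM to 83.8 and 36.0 CPM (log2 3.43 ± 0.293, adjusted p = 0.000335), and *Whrn*, a scaffold protein gene 48.8 kb before it, from 1.46 and 1.58 to 40.2 and 19.2 CPM (log2 4.30 ± 0.525, adjusted p = 0.00136). The same 2 genes rose with *Smad4* under TGFβ1, *Col27a1* by 2.22 ± 0.273 (adjusted p = 0.00701) and *Whrn* by 2.64 ± 0.47 (adjusted p = 0.023). *Tmem268*, the nearest tested gene on the other side at 14 kb, had a log2 fold change of 0.93 ± 0.293 for *Smad4* under TGFβ1 (adjusted p = 0.115). Around the other 9 subunits, 6 to 40 neighbours were tested within the same distance, and *Atp6v1c1* had 6 of 8 that rose with TGFβ1 in Smad4-on cells. Set against the 15.6% of all tested genes called higher in that contrast, neither share was tested.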

How the data were processed

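Bulk RNA-seq was analysed for 8 libraries of 2 mouse PDAC lines. Libraries were stranded and poly(A)-selected, and the authors sequenced single-end reads of 75 bases and per the submitters' processing notes used FastQC 0.11.5, Trimmomatic 0.36, STAR 2.5.3a (GRCm38) and featureCounts 1.6.3. The deposited values are raw counts per gene, 1 column per library, and a transcript length in bases. Groups came from the sample labels. An allele that all groups share is not reported here. Each line is 1 culture per condition. With the line in the model, p-values rest on how far the 2 lines differ in their responses, which cannot be told apart from spread between cultures or libraries.

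Counts were tested with edgeR 4.0.16 (R 4.3.3): TMM normalization, filterByExpr, a quasi-likelihood fit with 4 groups and the line (replicate block), and Benjamini-Hochberg adjustment over 14301 genes, with calls at an adjusted p under 0.05. The study's methods name DESeq2 and no covariate. The line was kept because every line went through all conditions. As a check of this pairing, each line's deviations from the group means were correlated over genes for 6 pairs of groups (r = 0.642 to 0.774). SE was computed from the log2 fold change and its F statistic. CPM use TMM-scaled totals, and fold changes per line use a prior count of 2. The scripts were tested on 1 simulated data set, in which 200 genes differed by a log2 fold change of 1 for *Smad4* under TGFβ1. With the line in the model 61% of these genes were called, and 10.3% of the calls were false. Without the line 0% were called.

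The 10 members, the gene lists and the tests were chosen with earlier results of these data known. Named genes were *Smad4*, the 10 subunits, the other subunits, the MiT/TFE genes, cell markers, up to 3 called genes per further list and comparison with the largest change and the same sign in both lines, and the 5 genes most like the subunits' mean. *Col27a1*, *Whrn*, *Tmem268* and the overlapping genes lie outside this rule. Overlaps and shared 75-base stretches came from GENCODE M21, whose positions 99.83% of 53360 matched genes overlapped, and promoters from RefSeq. Alternatives were DESeq2 1.42.0 (line in or out of the model), edgeR with no line term, DESeq2 size factors, no filter on low counts, only the 4 libraries compared, a 2-fold rule, and leaving out each library or line.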

Additional observations from a re-analysis of the deposited data

Results flagged for a closer look

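For *Atp6v1g1* the difference between the *Smad4* effects under TGFβ1 and under SB505124 was 1.26 on the log2 scale, in the same direction in both lines. The difference itself was tested within the fit across all genes, but the gene was chosen with these values known, so the result is a description. For *Atp6v0b*, the c'' proteolipid of the membrane ring, TGFβ1 libraries were lower than SB505124 libraries in B73 and higher in B87 in both *Smad4* states, and the lines differed by 0.163 (log2, mean of 2 effects). That difference between lines was not tested, and *Atp6v0b* was not called in any comparison. Groups of 2 libraries are too small to look for a single library that stands apart.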

How the results depend on the processing

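Each line was run through all conditions. With no replicate block in edgeR, the calls among the 10 subunits went from 5 to 3 for TGFβ1 in Smad4-on cells, from 1 to 0 in Smad4-off cells and from 1 to 0 for the difference of the *Smad4* effects. Those among the other subunits went from 4 to 1 and from 2 to 0 for TGFβ1 in Smad4-on and Smad4-off cells. Over all tested genes the calls for TGFβ1 went from 4751 to 2180 in Smad4-on cells and from 1888 to 270 in Smad4-off cells. For the difference of the *Smad4* effects they went from 28 to 0. DESeq2 without the block gave 3 subunits and, for the other subunits in Smad4-off cells, 1. Its calls over all tested genes were 3176 in Smad4-on cells and 1165 in Smad4-off cells. For *Smad4* under TGFβ1, where *Atp6v1g1* was the 1 call, DESeq2 with the line, no filter on low counts and only the 4 libraries compared each gave 3 (*Atp6v0d1* and *Atp6v1e1* joined) and DESeq2 without the line 2, and among the other subunits these gave 2, 1, 1 and 1 in place of 0. Over all tested genes the main fit called 973 of 14301. These settings, in the same order, called 1477 of 14301, 1887 of 27770, 1345 of 13463 and 670 of 14301. DESeq2 with the line called 1 other subunit for *Smad4* under SB505124, with 491 of 14301 tested genes called against 228 in the main fit. A 2-fold rule left 1 subunit for TGFβ1 in Smad4-on cells and 0 in Smad4-off cells and between lines, and 0 of the other subunits in each of these. Leaving out 1 library at a time gave 1 to 2 subunits for *Smad4* under TGFβ1, 1 to 5 for TGFβ1 in Smad4-on cells (1 without the Smad4-on SB505124 library of B87, and 3 without any of the other 3 libraries compared), 0 to 1 in Smad4-off cells, 0 to 1 for the difference of effects and 1 to 3 between lines. For the other subunits it gave 1 to 3 (4 with all libraries) for TGFβ1 in Smad4-on cells, 0 to 2 in Smad4-off cells and 1 to 2 between lines. Median log2 fold changes of the 10 subunits kept their sign. For *Smad4* under TGFβ1 the median was 0.214 without B73 and 0.246 without B87, for *Smad4* under SB505124 it was 0.0900 and 0.0803, with 0.13 unfiltered and 0.11 in the 4 libraries, and for the difference of effects 0.151 and 0.164, with 0.146 unfiltered. For TGFβ1 it was 0.357 without B73 and 0.105 without B87 in Smad4-on cells, and 0.207 and 0.0312 in Smad4-off cells. No value changed direction. The cause was not tested where a call was lost, beyond fewer libraries or a stricter rule. With 2 libraries a group, small changes of the subunits may be missed.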
